A study of Homo sapiens with 5 samples.

Results

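Natural killer (NK) cells and T cells read a target cell through its surface molecules. The 10 genes described here encode 4 kinds of such molecules: the stress-induced NKG2D ligands MICA, MICB, ULBP1, ULBP2 and ULBP3; PVR, a ligand of the NK receptors DNAM-1 and TIGIT; the checkpoint ligands CD276 (B7-H3), CD274 (PD-L1) and LGALS9 (galectin-9); and CD47, which binds SIRPA on macrophages and restrains engulfment. They were taken by gene symbol from a fixed list, through the platform annotation of an Illumina bead array, with no filter on their values. The list itself was chosen with earlier results of these data known. The list matched 17 of 47317 probes, for 10 of 20045 named genes. Of the 10 genes, 6 were above background (a detection p-value under 0.01) on at least 1 array, 3 on all 5 arrays, and 4 on none.

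The cells were of H9, a widely used line of human embryonic stem cells, and were undifferentiated (week 0) or carried for 2, 4, 6 or 8 weeks through a protocol aimed at corneal epithelial-like cells, in E6 medium renewed daily. No group carried a transgene or a further treatment, and the labels give 1 array per week with no replicate. Every difference below is therefore one between single arrays of a single line, with no spread between cultures, no test and no p-value. Total RNA came from whole cultures, so fewer cells of a type and less RNA per cell cannot be told apart.

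NKG2D is an activating receptor of NK cells and of cytotoxic T cells. Its ligands are relatives of the HLA class I heavy chains and are known for appearing on stressed, infected or transformed cells. Inhibitory signals work against such activation: PD-L1 acts on T cells through PD-1, and TIGIT competes with DNAM-1 for PVR. These molecules are of interest for transplanted cells because the recipient's NK cells, T cells and macrophages may attack a graft. The arrays measure RNA and not protein on the cell surface.

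The 10 genes differed in course. CD47 rose 10.7-fold between weeks 0 and 2 and stayed high. On the log2 scale that rise was 3.42, but 2.17 on the authors' processed values. MICB fell below background by week 4, and CD276 and PVR were above background throughout with smaller differences. MICA was above background at weeks 6 and 8, and ULBP2 at week 8, just over the detection limit. ULBP1, ULBP3, CD274 and LGALS9 were below background at every week. A gene is called higher or lower here only if the brighter of 2 arrays was above background and the fold between them reached 2 (a log2 difference of 1). Against a value below background a fold is a bound, taken against that value or against the dimmest probe above background on its array, whichever is higher, and is written as "at least". At week 2, 1 of 4 measured members was called higher and 1 lower, while 10.7% of all measured genes were higher and 9.29% lower. Week 4 had 1 higher and 2 lower members of 4 measured, beside 14.0% and 11.5% of all genes. For week 6 it was 1 each way of 5, beside 15.8% and 14.1%, and for week 8 again 1 each way of 6, beside 16.8% and 15.4%. In the steps between neighbouring later weeks, 1 of 4 members was lower and none higher from week 2 to week 4, beside 5.42% and 7.27% of all genes. No member was called from week 4 to week 6 (4.26% of all genes lower, 6.23% higher) or from week 6 to week 8 (1.08% lower, 1.93% higher). With so few members these counts do not set the list apart from all genes. The median log2 difference of the measured members was -0.30, -0.39, -0.07 and -0.25 at weeks 2, 4, 6 and 8, beside -0.02, -0.05, -0.04 and -0.05 over all measured genes. These medians include bounds. The week 8 median of the members rests in part on ULBP2, which enters at -0.08, a bound that gives no fold, whereas its measured difference was 0.95. Little can therefore be read from that median.

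**Figure D1:**
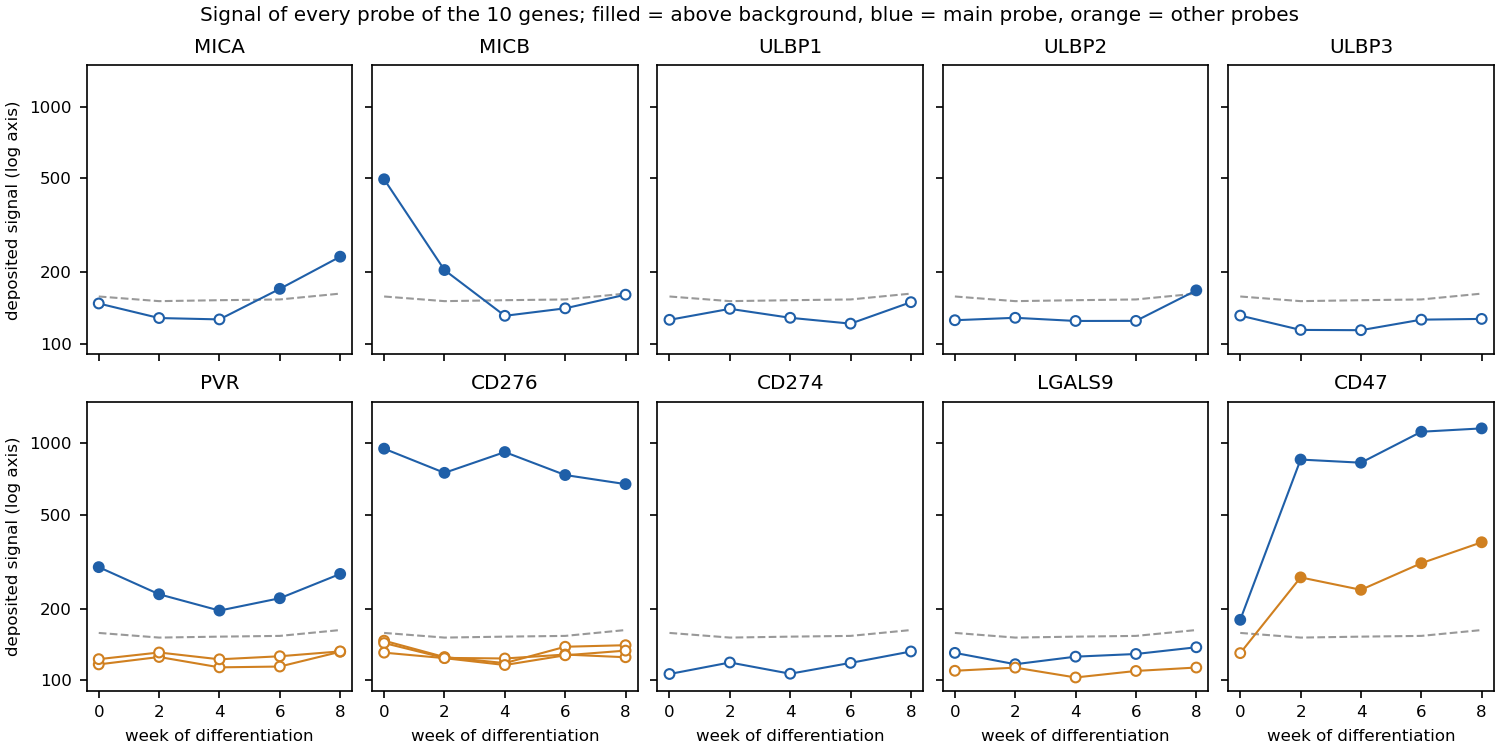
Deposited signal (log axis) of all 17 probes of the 10 genes by week of differentiation, 1 array per week. Filled points are above background, open points are not, blue lines are the main probe of each gene, orange lines its other probes, and the dashed line is the lowest signal above background on each array. CD47 climbs from 179.6 to 854.1 by week 2, MICB drops from 494.6 into the background, and the panels of ULBP1, ULBP3, CD274 and LGALS9 hold open points alone.

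MICA and MICB, the MHC class I chain-related genes, are neighbours on chromosome 6 with no other protein-coding gene between them in the RefSeq annotation. Their promoters are shown because the pair differed in course over these weeks while sharing most of their promoter sequence. The lines give the 250 bases before the annotated start, 5′ to 3′, from RefSeq on GRCh38.p14: MICA at chr6:31403345-31403594 and MICB at chr6:31497895-31498144, both on the plus strand. Capitals mark the letters GAANNTTC, the paired core of a heat shock element (its own reverse complement), and CCAAT boxes, here on the opposite strand as ATTGG.
MICA: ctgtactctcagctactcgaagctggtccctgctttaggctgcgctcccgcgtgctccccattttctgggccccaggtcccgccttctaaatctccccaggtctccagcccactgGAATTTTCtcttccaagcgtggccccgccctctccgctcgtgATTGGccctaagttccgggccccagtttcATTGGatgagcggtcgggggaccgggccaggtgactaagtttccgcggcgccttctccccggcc
MICB: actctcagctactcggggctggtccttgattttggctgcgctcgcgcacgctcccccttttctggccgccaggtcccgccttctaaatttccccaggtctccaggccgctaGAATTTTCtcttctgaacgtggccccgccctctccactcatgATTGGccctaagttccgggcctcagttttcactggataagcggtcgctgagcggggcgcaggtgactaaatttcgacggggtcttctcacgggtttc
In a global alignment 210 of 254 columns were identical (82.7%), whereas the next most similar pair among the members, PVR and CD47, had 54.0%. Both hold GAANNTTC once, beginning 135 bases before the start in MICA and 139 in MICB, and 5.78% of the 35116 promoters in the table hold it in the same window. The ATTGG letters occur 93 and 64 bases before the start in MICA and 97 bases before it in MICB, and CCAAT on either strand occurs in 32.0% of promoters. The marked heat shock and CCAAT letters do not overlap. A match of letters is a description and shows no binding.

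MICB was the member that fell furthest. Its probe read 494.6, 204.5, 131.0, 140.9 and 160.9 on the arrays of weeks 0, 2, 4, 6 and 8. The first 2 arrays were above background and the later 3 were not, although week 8 lay close to the lowest signal above background on that array, 162.6. After normalization MICB fell 3.33-fold by week 2, and the bounds at weeks 4, 6 and 8 were decreases of at least 7.49, 7.59 and 8.25-fold. Under the alternatives that kept MICB it was called lower at each week, and its log2 difference at week 8 ranged from -3.28 to -1.43, the smallest size on the authors' processed values. The step from week 2 to week 4 was itself at least 2.25-fold. It was not called (-0.47 to -0.80 on the log2 scale) without background correction, with an offset of 50 or on the authors' processed values.

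MICA was brightest at the end of the course, whereas MICB was brightest at week 0. The MICA signal was 147.7, 128.2, 126.5, 170.3 and 232.9 over the same arrays in order, and only the last 2 were above background. From week 4 to week 8 the signals of both genes rose, those of MICB staying below background. For MICA the week 8 array stood 1.56-fold over week 6. Against week 0 the week 8 value was at least 1.99-fold higher, just short of a call, and the measured difference was 1.35 on the log2 scale. With a detection limit of 0.05 the week 0 array counts as above background, with a p-value of 0.035, and MICA is then called higher at week 8. MICA and MICB share much coding sequence too, and how far each probe tells them apart was not tested.

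The ULBP proteins are NKG2D ligands, some of them held on the membrane by a lipid anchor, and their genes lie together on chromosome 6. ULBP2 and ULBP1 are neighbours, with RAET1L, another NKG2D ligand gene, between ULBP1 and ULBP3. The ULBP2 signal was 125.5, 128.5, 124.6 and 124.7 at weeks 0, 2, 4 and 6, and 167.8 at week 8, the single array on which it was above background. That value was so close to the limit that no fold could be given against week 0, where the measured log2 difference was 0.95. ULBP1 read between 121.4 and 149.6 over the 5 arrays and ULBP3 between 113.9 and 131.3, below background on each. The 3 remaining NKG2D ligand genes, RAET1E, RAET1G and RAET1L, were below background on all arrays as well. Of 8 NKG2D ligand genes, MICB alone was above background at week 0, and MICA and ULBP2 alone at week 8. Such readings leave expression under the detection limit possible.

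PVR, also called CD155 or the poliovirus receptor, had 1 probe above background on all 5 arrays and 2 probes below it on all of them. The first probe read 299.9, 230.3, 196.5, 221.6 and 280.7 in order of week, so the undifferentiated cells were brightest and week 4 dimmest. The log2 differences from week 0 were -0.47, -1.02, -0.68 and -0.41. At week 4 PVR fell 2.03-fold, a call that was lost without background correction (-0.56), with an offset of 50 (-0.81) and on the authors' processed values (-0.49). The other 2 PVR probes stayed between 113.1 and 132.1. Genes with the course most like that of PVR, among 9048 others above background on all arrays, were PHF10, PDCD2 and the readthrough locus NME1-NME2. Their mean absolute distance from PVR over the 5 arrays, after each profile was centred on its own mean, was 0.04, 0.04 and 0.05 on the log2 scale. PHF10 encodes a subunit of a chromatin remodelling complex, and NME1 and NME2 encode nucleoside diphosphate kinases.

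NECTIN2, which shares the receptors DNAM-1 and TIGIT with PVR, was above background on all arrays and read 471.2 at week 0 and 690.7 at week 8, a log2 difference of 0.58 that was not called and that turned to -0.29 on the mean of its probes. BAG6, a ligand of the NK receptor NKp30, differed by 0.15 at week 8, or by -0.17 with scaling to a common 75th percentile. PDGFD, a growth factor that also binds the NK receptor NKp44, rose 4.51-fold by week 8, from 338.9 to 1226.3, with its highest difference, 6.67-fold, at week 6. At week 8 PDGFD was the single call among 3 measured genes of the other activating ligands, beside 16.8% of all genes higher and 15.4% lower. In that list CLEC2B and CD48 were below background on all arrays and NCR3LG1 was not analysed here.

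Among the 3 checkpoint ligands, CD276 was the one above background, and it was not called at any week. CD276 is a B7 family protein expressed by many tumours and stromal cells, with mostly inhibitory effects on T cells and NK cells. Its main probe read 949.6, 750.6, 918.8, 734.8 and 672.6 at weeks 0, 2, 4, 6 and 8, above background throughout. In this unnormalized signal week 0 was the highest array, whereas after normalization week 4 was, and week 8 was the lowest in both. The log2 differences from week 0 were -0.13, 0.25, -0.07 and -0.59, none of them called, and the sign at week 4 turned (-0.07) with scaling to a common 75th percentile. The other 3 CD276 probes stayed below background on every array, between 115.7 and 146.6.

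CD274, the interferon-inducible ligand of PD-1, read 106.0, 118.6, 106.3, 118.1 and 132.0 at weeks 0, 2, 4, 6 and 8. LGALS9, a galectin that binds the T cell receptor TIM-3, had 2 probes that read between 102.5 and 137.5. All of these were below background, where the lowest signal above background lay between 151.1 and 162.6. The arrays therefore give no course for either gene. IFNGR1, the ligand-binding chain of the interferon gamma receptor, rose 2.65-fold by week 8. It was the single call among 5 measured genes of the interferon receptor list, beside 16.8% of all genes higher and 15.4% lower. The receptor's other chain gene IFNGR2 was below background throughout. IRF1, a transcription factor induced by interferon gamma, differed by 0.41 at week 8.

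Other checkpoint genes were called. VTCN1 (B7-H4), a B7 family inhibitor of T cells, was below background at week 0, at 117.0, and read 274.9, 1050.6, 1446.6 and 1652.0 at weeks 2, 4, 6 and 8. After normalization VTCN1 was higher than at week 0 by at least 3.61, 20.4, 30.5 and 27.2-fold at those weeks, so week 6 and not week 8 was its highest. TNFRSF14 (HVEM), the ligand of the inhibitory receptor BTLA, read 140.0, 141.5, 193.2, 374.7 and 823.8 and was at least 12.4-fold higher at week 8. Under the alternatives the bounds at week 8 lay between 3.23 and 5.18 on the log2 scale for VTCN1 and between 2.17 and 4.05 for TNFRSF14. LGALS3 rose 2.01-fold by week 8, a call lost with scaling to a common 75th percentile (0.56), without background correction (0.95) and with an offset of 50 (0.99), whereas on the mean of its probes the log2 difference was 2.18. CD200, which restrains myeloid cells, fell 2.21-fold by week 8, with -0.83 without background correction, -0.79 on the authors' processed values and -0.77 on the mean of its probes. In this list, CD276, CD274 and LGALS9 left out, 3 of 9 measured genes were higher at week 8, 1 was lower and 5 were not called, with a median of -0.27. Of all measured genes 16.8% were higher and 15.4% lower, with a median of -0.05. With so few genes the counts do not set this list apart. PDCD1LG2 (PD-L2), CD80 and VSIR were below background on all arrays.

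CD47 showed the largest increase of the 10 genes. The line below gives the 250 bases before its annotated start, from RefSeq on GRCh38.p14, chr3:108091032-108091281 on the minus strand, shown because CD47 is the member with the largest increase. Capitals mark GC boxes (GGGCGG, or CCGCCC on the opposite strand), the letters bound by SP1 and its relatives.
CD47: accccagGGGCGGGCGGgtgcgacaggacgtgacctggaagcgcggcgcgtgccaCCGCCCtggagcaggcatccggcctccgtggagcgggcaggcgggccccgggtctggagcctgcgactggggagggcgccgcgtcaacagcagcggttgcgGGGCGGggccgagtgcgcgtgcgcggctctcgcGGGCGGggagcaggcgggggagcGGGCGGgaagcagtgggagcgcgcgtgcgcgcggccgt
GC boxes occur 6 times, the first 2 overlapping each other, and 42.6% of promoters hold at least 1. This number is not particular to CD47: 1 of the windows of CD276, which was not called, holds 7, and that of ULBP3, below background on all arrays, holds 6. MICA and MICB hold 1 each, and the PVR and LGALS9 windows hold none.

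The main CD47 probe read 179.6 in the undifferentiated cells and 854.1, 828.5, 1119.7 and 1156.8 at the 4 later time points. The undifferentiated cells were the dimmest array, above background with a detection p-value of 0.0013. Their signal lay near the lowest signal above background on that array, 158.1, so the size of the fold depends on the background correction. All later arrays lay far above background. After normalization CD47 rose 10.7-fold by week 2, and stood 10.6, 15.9 and 12.6-fold above week 0 at weeks 4, 6 and 8. Between neighbouring later weeks it differed by -0.02, 0.59 and -0.34 on the log2 scale, so the difference lay between weeks 0 and 2. A second probe, annotated to another transcript of the gene, read 129.9, 271.4, 240.5, 311.6 and 382.0. It was below background at week 0 alone and was higher by at least 3.53, 2.75, 4.28 and 4.58-fold at weeks 2, 4, 6 and 8. Both probes thus moved the same way, and CD47 was called higher at each week under all 7 alternative settings, with a log2 difference between 2.17 and 3.49 at week 2 and between 2.38 and 3.65 at week 8. The detection limit of 0.05 and the filter for signal on all 5 arrays could not change its values, since its main probe was above background throughout. At week 2 the log2 difference of CD47 was 2.30 without background correction and 3.09 on the mean of its probes. The lowest value at both weeks came from the authors' processed values.

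**Figure D2:**
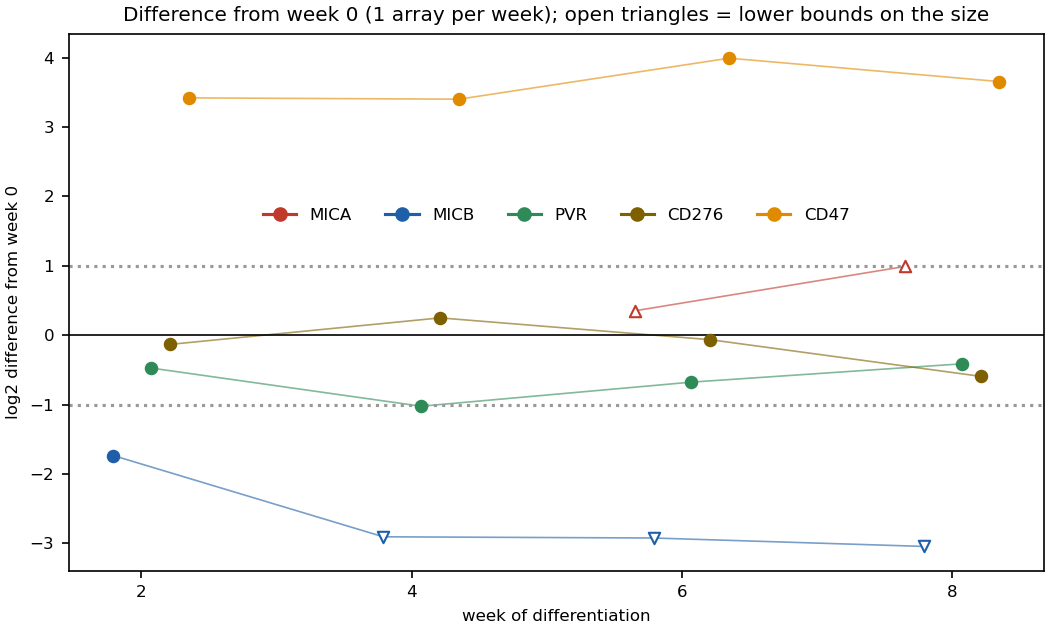
Log2 difference from week 0 of the 5 members with a fold against week 0, by week of differentiation (1 array per week, points spread sideways for clarity). Filled circles were above background on both arrays, open triangles are bounds, and dotted lines mark 2-fold. CD47 lies between 3.40 and 3.99 at all 4 weeks, MICB between -1.73 and -3.04, and CD276, PVR and MICA lie near or within the 2-fold lines.

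The genes with a course most like that of CD47 were ANXA2, COL5A1 and RGL1, at a mean absolute distance of 0.10, 0.10 and 0.16 on the log2 scale over the 5 arrays. ANXA2, a membrane-binding annexin, read 1185.9 at week 0 and 8709.2 at week 2, and COL5A1, a fibrillar collagen chain, read 517.3 and 3336.3. Among other genes of phagocytosis signals, none of 3 measured genes was called at any week. CD24, a ligand of the macrophage receptor SIGLEC10, differed by -0.77 at week 8 and by -1.31 on the mean of its probes, CALR by -0.16, and QPCTL, which modifies CD47 for binding to SIRPA, by a bound of -0.47. In the list of protection from complement and cytotoxic granules 2 of 3 measured genes were called at week 8, beside 16.8% of all genes higher and 15.4% lower. CD55 and CD59 rose 2.64-fold and 2.42-fold by week 8, whereas SERPINB9, the inhibitor of granzyme B, differed by -0.99, or by -1.04 with scaling to a common 75th percentile. Without background correction CD55 differed by 0.80 and CD59 by 0.76, below a call, and on the authors' processed values by 0.70 and 0.68.

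Ligands of inhibitory NK receptors were called in both directions. HLA-C rose 2.44-fold by week 2 and differed by -0.42 at week 8. HLA-G fell 2.21-fold by week 4 and differed by -0.08 at week 8, and HLA-E, the ligand of NKG2A, was above background at weeks 0 and 2 alone and lower at week 8 by a bound of -0.61. CDH1 (E-cadherin), a ligand of the receptor KLRG1, read 113.4 at week 0, below background, 1770.8 at week 4 and 607.4 at week 8, and was higher by at least 35.4-fold at week 4 and 8.49-fold at week 8. CDH2 (N-cadherin), of the same family, was called at week 4, higher by at least 2.72-fold, and at no other week. CLEC2D, the ligand of CD161, fell by at least 2.14-fold at week 8, which was not reached without background correction (-0.41), with an offset of 50 (-0.71) or on the authors' processed values (-0.31). In all, 2 of 6 measured genes were higher and 0 lower at week 2, 2 of 7 higher and 1 lower at week 4, 1 of 7 higher and 0 lower at week 6, and 1 of 6 higher and 1 lower at week 8. The shares of all genes were those given above, 10.7% and 9.29% at week 2 and 16.8% and 15.4% at week 8. Of 4 measured adhesion and death receptor genes, ICAM2 fell 2.18-fold and the TRAIL receptor gene TNFRSF10B rose 2.37-fold at week 8, while CD58, the ligand of CD2, differed by -0.07. ICAM2 was not called without background correction (-0.80), with an offset of 50 (-0.996) or on the authors' processed values (-0.76). TNFRSF10B was not called with scaling to a common 75th percentile (0.86) or on the mean of its probes (0.94). ICAM1 and FAS were below background on all arrays.

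Genes that release or process these ligands were mostly not called. ADAM10 and ADAM17 are proteases that shed MICA, MICB and ULBP proteins from the membrane. ADAM10 differed by 0.20 at week 8, and by -0.05 with scaling to a common 75th percentile and -0.18 on the mean of its probes. ADAM17 rose 2.09-fold by week 6 and differed by 0.96 at week 8, or by 0.51 on the mean of its probes. ADAM9, another shedding protease, rose 2.10-fold by week 8, from 170.0 to 271.3, and was not called without background correction (0.50), with an offset of 50 (0.78) or on the authors' processed values (0.40). CMTM6, which stabilises PD-L1, rose 2.18-fold by week 2 and differed by -0.07 at week 8. PDIA6, a disulfide isomerase, fell 2.57-fold by week 4 and differed by -0.94 at week 8, or by -1.31 with scaling to a common 75th percentile. The other 7 of 8 measured genes of this list were not called at week 8. For list genes other than the members the alternatives were run at week 8 alone. Among 7 measured stress and growth regulators linked to NKG2D ligands 1 was higher and 2 lower at week 8: MYC fell 5.14-fold and the checkpoint kinase gene CHEK1 3.86-fold by week 8, and DDIT3, a transcription factor of the integrated stress response, rose 4.67-fold. HSF1, the factor that binds heat shock elements, was 1.21 above week 0 on the log2 scale at week 2 and 0.80 at week 8. The 10 lists hold 71 genes beside the members, of which 65 had a named probe and 16 of these were below background on all arrays. Of the genes measured at week 8, 11 of 48 (22.9%) were higher and 5 (10.4%) lower at week 8, beside 16.8% and 15.4% of all genes. The median was -0.08, against -0.05 for all genes.

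**Figure D3:**
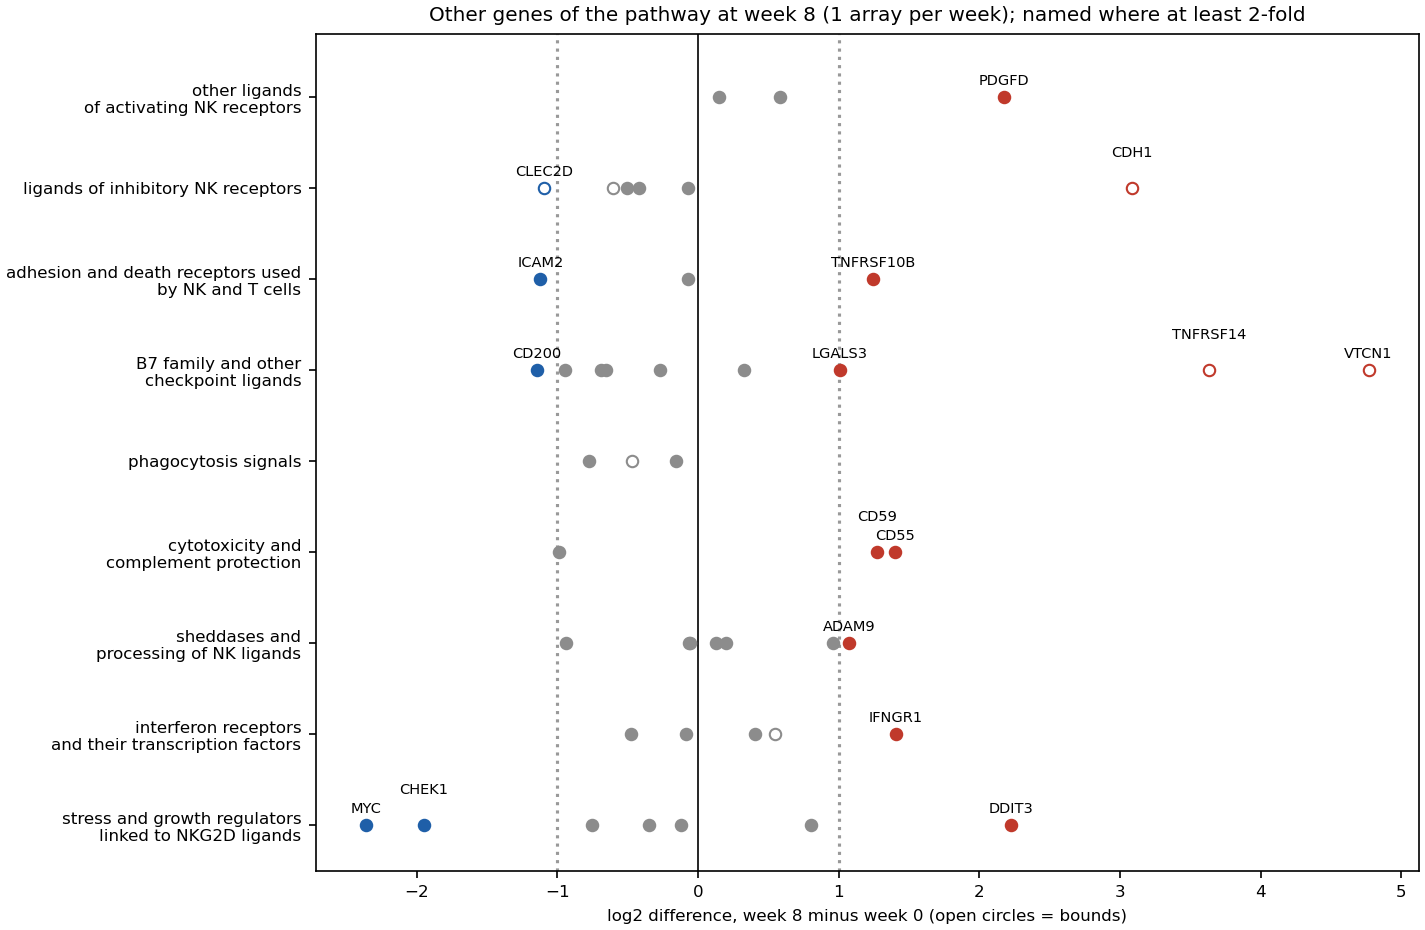
Log2 difference at week 8 from week 0 of measured genes in 9 lists of the pathway, the 10 members left out (1 array per week). TNFRSF10A and MMP14, measured but with a bound that gives no fold, are not drawn. Each point is a gene, open points are bounds, red and blue points are at least 2-fold higher and lower, and dotted lines mark 2-fold. VTCN1 and TNFRSF14 lie furthest right, at 4.77 and 3.63, and MYC furthest left, at -2.36.

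Cell type markers moved on the same arrays as these genes. Summed signals here are of deposited intensities, with no background subtracted and with probes below background included. All 4 pluripotency markers fell by week 2, and their summed signal went from 27464 at week 0 to 5598 at week 2 and 632.3 at week 8. The summed signal of 6 stroma and fibroblast markers went from 3368 to 25197 at week 2 and 59100 at week 8. Of that sum VIM alone gave 14635.6 at week 2 and 24852.9 at week 8. Of these 6 markers 5 were called higher at both weeks, beside 10.7% and 16.8% of all genes. The summed signal of 5 neural markers went from 2944 to 16306 and 8453 at the same weeks. The 4 pigment markers summed to 1936 at week 0, 3028 at week 2 and 34664 at week 8. Of the corneal and basal epithelium markers, KRT5, KRT14, KRT15 and PAX6 were higher at week 8. KRT3 and KRT12, the keratins of mature corneal epithelium, were below background on all arrays. Whether the cells were corneal was not tested. The part of these cell types in the course of CD47, MICB and MICA was not tested. Of 14 immune cell markers between 3 and 5 were above background on any given array, while 8 of the 14, PTPRC, CD3D, CD3E, CSF1R, NKG7, GNLY, KLRD1 and MS4A1, were below background on all arrays. The summed signal of the list lay between 2452 and 2924, much of it background. At week 0 HAVCR2 read 820.9 and CD68 442.3, where the median of all probes on the array was 138.5. The single immune marker called at week 8 was KLRK1, the gene of NKG2D itself, at 124.6 at week 0 and 238.6 at week 8, at least 2.07-fold higher. It was not called without background correction (0.43), with an offset of 50 (0.72) or on the authors' processed values (0.63). On the mean of its probes CD68, a macrophage marker, was called higher as well (1.57), and with a detection limit of 0.05 LYZ, the lysozyme gene, was called lower (-1.19). HAVCR2, the gene of TIM-3, fell 2.36-fold by week 4 and differed by -0.79 at week 8.

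**Figure D4:**
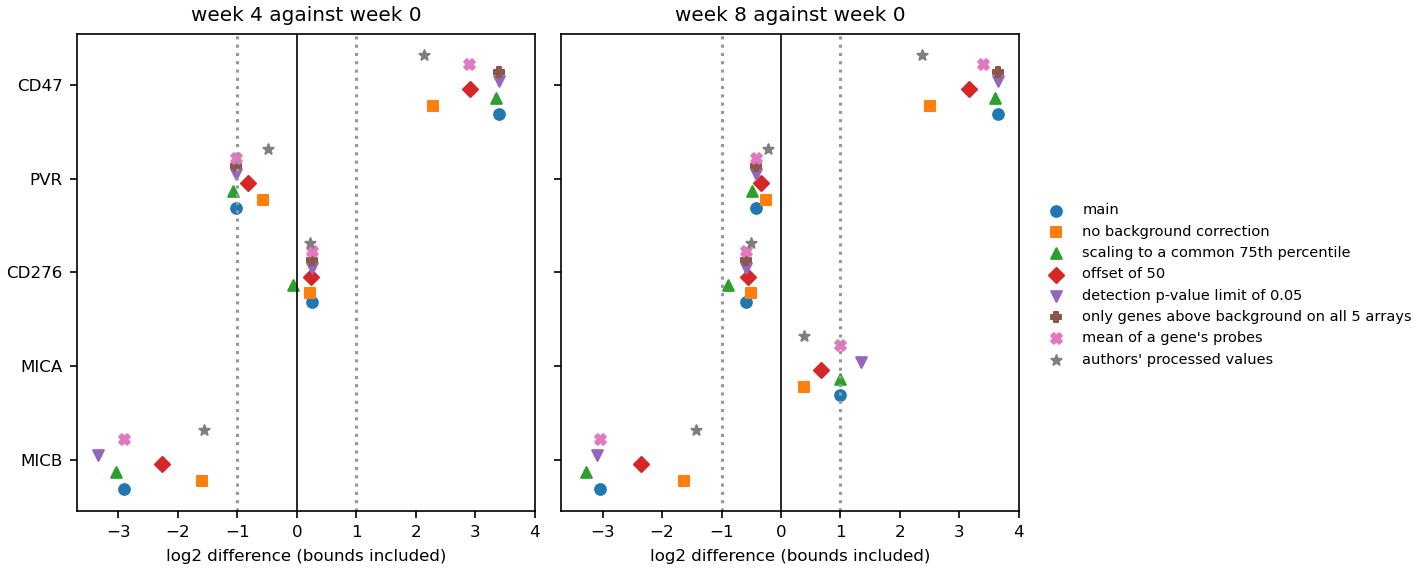
Log2 difference from week 0 at weeks 4 and 8 of 5 members under the main setting and 7 alternatives, bounds included; each symbol is a setting and dotted lines mark 2-fold. CD47 lies at 2.15 or above and MICB at -1.43 or below in both panels, PVR at week 4 crosses the 2-fold line, and MICA at week 8 ranges from 0.38 to 1.35.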

How the data were processed

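RNA levels were read on 5 Illumina HT-12 bead arrays in 1 colour, 1 per week. Per the file headers, the deposited table gives a mean intensity per probe, linear and before normalization. Beside it the deposited table has a detection score, a fraction from 0 to 1 that grew with the signal and was therefore taken as 1 minus a detection p-value. The lowest deposited intensity was 90.0 to 98.7 on the 5 arrays, so no background had been subtracted. The authors' processed intensity, in another deposited table, is linear too, with column medians of 133.1 or 133.2 and a Spearman correlation with the unprocessed signals of 0.999 across probes. No centring or turned direction was seen, and neither its method nor the scanner software is given in the sources used here.

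With neqc of limma 3.58.1 in R 4.3.3 (offset 16, background inferred from the detection p-values), intensities were background corrected, quantile normalized and put on a log2 scale. Between 16993 and 18358 probes per array were above background, and this limits the precision together with the single array per week. Of 47317 probes, 30110 had 1 gene symbol, 8 several and 17199 were unlisted. Symbols were updated through Entrez identifiers for 30071. Each gene was represented by its probe of highest mean, and 13002 genes were above background on at least 1 array. Further steps ran in Python 3.11.15 and pandas 2.3.3, and promoters were aligned with Biopython 1.88. The steps were tested on simulated data.

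The 10 members and the lists were chosen with earlier results of these data known. Named genes are every member, up to 4 genes called at week 8 in each list, genes below background on all arrays, and the 3 genes nearest in course to each member that was above background on all arrays and spanned at least 1 on the log2 scale. Other list genes named to complete a count, or as partners of a member, were chosen after their values were seen. List genes without a named probe were not analysed here. The 7 alternatives changed the background correction, scaling, offset, detection limit, filter, choice of probe and source of the values.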

Additional observations from a re-analysis of the deposited data

How the results depend on the processing

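No paired analysis was possible because each week has 1 array, and no replicate could be left out. Of 213 member values recomputed under the 7 alternatives, 206 kept their side of the 2-fold line, 6 called values dropped below it, 1 passed it and no called value changed sign. For other list genes at week 8, 469 of 501 kept it, 24 dropped below, 8 passed it and no called value changed sign. Some values in both tallies could not change. The detection limit of 0.05 and the filter for signal on all 5 arrays left genes above background on every array as they were. The mean of probes did the same for genes with a single probe above background. Scaling to a common 75th percentile moved the median of all genes at week 8 to -0.21, and the share of higher among all calls from 52.1% to 41.9% (weeks 2, 4 and 6: from 53.4%, 54.9% and 52.9% to 46.3%, 41.5% and 39.5%), so differences under that scaling are relative to a lower centre. When genes had to be above background on every array, MICB, MICA and ULBP2 leave the data by construction: 0 members were lower at weeks 2, 6 and 8 and in the step from week 2 to week 4, and 1 at week 4. Of the 9049 genes left by that filter, 756, 1004, 1307 and 1502 were lower at weeks 2, 4, 6 and 8, and 368 in the step from week 2 to week 4. At week 4 the lower members were 1 in place of 2 without background correction, with an offset of 50 and on the authors' processed values, where the step from week 2 to week 4 had 0. In the same order of settings, 602 of 11829, 996 of 11833 and 590 of 11826 of all genes were lower at week 4. In the step 239 of 11712, 419 of 11711 and 243 of 11708 were lower. Without background correction the common background stays in each value, and the offset of 50 adds a larger constant after that correction. Either shrinks folds of dim probes. The method behind the authors' processed values is not given. With a detection limit of 0.05, 2 of 6 measured members were higher at week 8, MICA and CD47, beside 2233 of 13775 of all genes. Of the other pathway genes, without background correction 1, 3 and 2 were lower at weeks 2, 6 and 8 and 7 were higher at week 8, in place of 3, 5, 5 and 11. The counts of all genes fell as well, to 480, 831 and 993 lower and 1252 higher, in place of 1086, 1693, 1900 and 2068. On the authors' processed values 1, 3 and 2 pathway genes were lower at weeks 2, 6 and 8, beside 456, 806 and 945 of all genes. With an offset of 50, 3 were lower at week 8, with scaling to the 75th percentile 9, and on the mean of probes 5 at week 2. Of all genes 1470 of 12337, 2528 of 12338 and 1052 of 11735 were lower in these cases. Under the requirement of signal on every array 2 pathway genes were higher at week 4 and 3 at week 6, in place of 5 and 6. Of all genes 1151 and 1275 were higher there, in place of 1657 and 1903. Signals of MICA, ULBP2 and the later MICB arrays lay so near the background that the arrays limit what can be said of them. The CD47 signal at week 0 lay near it too, which limits what can be said of the size of its fold.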
